A study of Mus musculus with 6 samples.

Results

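The cells described here are resting thymocytes whose barcodes hold RNA of both the CD8 coreceptor and Dntt, the template-free DNA polymerase of antigen receptor assembly. They were selected on raw counts of unique molecular identifiers (UMIs). A thymic barcode passed the filter with 500 or more genes, 1000 or more UMIs and no more than 20% of them mitochondrial, and it was a member if 4 further conditions held. Top2a, Mki67, Birc5, Ccna2, Cdk1 and Ube2c summed to fewer than 5 UMIs, Cd8a plus Cd8b1 to at least 1, Dntt had at least 2 UMIs and Ccl5 fewer than 15. The rule chose 91 of 1067 filtered barcodes (8.53%, exact 95% interval 6.92 to 10.4%) in the thymic library labelled Pdcd1fl/fl. It chose 189 of 2635 (7.17%, 6.22 to 8.23%) in the one labelled Pdcd1 cKO, so 280 of 3702 thymic and of 11125 barcodes in all.

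The study profiled CD8 T cells of thymus, spleen and B16-OVA tumors with PIPseq v3 single-cell RNA sequencing, 1 library per genotype and tissue, 6 libraries in all. The mice were C57BL/6 adults of over 8 weeks, and thymic and splenic cells were taken with a kit that enriches CD8a+ T cells by depleting others, tumor cells with CD8 (TIL) microbeads. Each thymic and splenic library came from 1 mouse, while tumors of 3 mice per genotype were pooled on day 12. Only the 2 thymic libraries hold this population: the rule finds 0 cells in both splenic libraries, 1 in the tumor library labelled Pdcd1fl/fl and 0 in the other tumor library.

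Both groups carry floxed Pdcd1, the gene of the inhibitory receptor PD-1. Pdcd1fl/fl mice were the controls, and Pdcd1 cKO mice also carried the E8I CD8-Cre of strain C57BL/6-Tg(Cd8a-cre)1Itan/J. The E8I enhancer of Cd8a acts mainly in mature CD8 cells, so the model deletes late in thymic development and leaves earlier stages with the gene. Pdcd1 RNA was higher in the libraries labelled Pdcd1 cKO. In the thymus it had 12 UMIs (1.88 CPM, the UMIs of a gene scaled by all UMIs of the same cells) among filtered cells of the Pdcd1fl/fl-labelled library and 131 (6.84 CPM) among those labelled Pdcd1 cKO. In the spleen it had 1 UMI (0.450 CPM) and 104 UMIs (11.7 CPM), and in the tumors 717 (76.4 CPM) and 808 (102 CPM). The study reports that flow cytometry of thymic CD8 cells showed the loss of PD-1 in this model. UMIs counted from the 3′ end of a transcript need not report a deleted exon, and which genotype a library holds was not tested. Libraries are therefore named below by their labels, and values of each thymic library are given on their own.

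Thymocytes build their antigen receptors by cutting and joining gene segments. Rag1 and Rag2 make the cuts, and Dntt adds bases at the joints. Progenitors without CD4 and CD8 first join the beta chain, marked by Il2ra and by the surrogate alpha chain Ptcra. They then pass through a stage with both coreceptors where the alpha chain is joined, and cells that pass selection silence the recombination genes and gain Ccr7, Klf2 and S1pr1, which guide them to the medulla and out of the thymus. In droplet data a barcode can also hold RNA of a neighbouring cell or free RNA of the suspension, which is why the rule asked for both to be examined.

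The thymic libraries held 6389966 and 19304377 UMIs over 1067 and 2674 barcodes, of which 0 and 39 did not pass the filter. Here and below, a pair of values gives the library labelled Pdcd1fl/fl first. The members had a median of 5149 and 6230 UMIs. With 1 library per genotype no value has a replicate, nothing was tested between genotypes, and all intervals (95%, exact) cover counting error only. No barcode was shared between a thymic library and any other library, and 2 were shared between the splenic libraries.

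The members were compared within each library with 2 reference populations that pass the same filter, cycling and Ccl5 limits. CD8-negative Dntt-positive cells (no CD8 UMI, at least 2 of Dntt) numbered 128 and 330, with a median of 3702 and 6113 UMIs. CD8-positive Dntt-negative cells (at least 1 CD8 UMI, none of Dntt) numbered 170 and 748, with a median of 3437.5 and 4998 UMIs. CD8-positive cells with exactly 1 Dntt UMI, 68 and 281, belong to neither.

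Most members sat at the limits of the rule. Just inside the Dntt limit were 31 and 75 members with 2 UMIs, and just outside were the 68 and 281 cells with 1. Just inside the CD8 limit were 57 and 93 members with 1 UMI, against the 128 and 330 CD8-negative cells just outside. In all 79.1% (69.3 to 86.9%) and 75.7% (68.9 to 81.6%) were at one limit or the other, and 16 and 25 at both. High counts of both were rare: 3 and 7 members had at least 5 Dntt and at least 4 CD8 UMIs. The cycling sum was 4 in 12 and 21 members and 5 in 11 and 17 cells just outside, and the Ccl5 count nearest its limit was 13, in 1 member of each library, with the first count outside at 17 in 1 cell of the library labelled Pdcd1fl/fl. The highest counts among members were 16 and 30 for Dntt and 11 and 18 for CD8.

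The rule genes are description only. Dntt (ENSMUSG00000025014, GRCm39 chromosome 19, 41017714 to 41047964, plus strand) had 713 and 694 CPM in the members and 886 and 878 CPM in the CD8-negative reference. Cd8b1 (ENSMUSG00000053044, chromosome 6, 71299772 to 71315087, plus strand), the CD8 beta chain, had 226 and 263 CPM against 646 and 676 CPM in the Dntt-negative reference. Cd8a (ENSMUSG00000053977, chromosome 6, 71350411 to 71356157, plus strand), the alpha chain, had 130 and 140 CPM against 256 and 339 CPM. Per UMI the members thus had less of each rule gene than the reference that was selected on it.

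Rag1 (ENSMUSG00000061311, chromosome 2, 101468603 to 101479877, minus strand), the remaining marker of the population, was not part of the rule. It stood at 57.5 CPM (38.8 to 82.1) and 77.1 CPM (62.8 to 93.5) in the members. In the CD8-negative reference it was 63.9 and 71.3 CPM, and in the Dntt-negative reference 28.6 and 7.34 CPM. Its log2 ratio was -0.15 (-0.90 to 0.59) and 0.11 (-0.26 to 0.48) against the former, a difference not detectable at this depth, and 1.01 (0.13 to 1.92) and 3.39 (2.79 to 4.04) against the latter. A Rag1 UMI was found in 21 of 91 members (23.1%) and 52 of 189 (27.5%). In the Ccl5-high CD8-positive cells, an effector-like type that should lack Rag1, it was found in 0 of 32 and in 7 of 249 (2.81%). Their median depths were 3287.5 and 4653 UMIs. For the 0 of 32 the floor of 3 counts is 9.38% of cells (exact interval 0 to 10.9%).

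Cd4 and Rag2, of the stage with both coreceptors, were near 0. Cd4, the other coreceptor, had 0 UMIs in 91 members and 4 UMIs in 189 (3.02 CPM, 0.823 to 7.74). For the 91 members the same floor is 3.30% of cells with a UMI (exact interval 0 to 3.97%). No cells known to hold Cd4 RNA were examined, so how well it is detected at this depth was not tested. Rag2, the partner of Rag1, had 1 and 8 UMIs. Of the 16 genes listed for that stage, 9 and 13 could be measured against the CD8-negative reference, with 0 past 2-fold in either library and medians of -0.17 and 0.10. Among them Satb1, a chromatin organizer, had 420 and 397 CPM, Arpp21, an RNA-binding protein, 140 and 218 CPM and Ccr9, a chemokine receptor, 53.7 and 106.5 CPM in the members. Cd4 UMIs, which a stage with both coreceptors would hold, were thus nearly absent while those of other listed genes were not. Which stage the members belong to was not tested, and they are named by their rule, as CD8-positive Dntt-positive cells.

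Ptcra and Il2ra, of the pre-TCR stage, were each higher in the members than in the Dntt-negative reference. Ptcra (ENSMUSG00000036858, chromosome 17, 47066578 to 47074902, minus strand) stood at 40.3 and 37.0 CPM, close to the 37.3 and 47.9 CPM of the CD8-negative reference and above the 12.0 and 2.78 CPM of the Dntt-negative reference. Il2ra (ENSMUSG00000026770, chromosome 2, 11647618 to 11698004, plus strand), the interleukin 2 receptor alpha chain CD25, was 88.2 and 186 CPM in the members, 192 and 263 CPM in the former and 27.1 and 26.1 CPM in the latter. Other listed genes of that stage included Lyl1, with 0 UMIs in the members of both libraries, and Hes1, a target of Notch, with 249 and 732. The log2 ratio of Il2ra to the CD8-negative reference was -1.12 (-1.65 to -0.61) and -0.50 (-0.72 to -0.29), so the members lay below it in both libraries.

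Notch3, a Notch receptor of early thymocytes, had 9 UMIs (17.3 CPM) and 79 UMIs (59.7 CPM) in the members, against 60.4 and 85.3 CPM in the CD8-negative and 31.6 and 7.08 CPM in the Dntt-negative reference. Against the latter its log2 ratio was -0.87 (-2.18 to 0.32) and 3.08 (2.44 to 3.75). Cd24a, a surface protein lost on maturation, was 414 and 461 CPM, against 515 and 645 CPM in the CD8-negative and 114 and 72.9 CPM in the Dntt-negative reference.

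T cell receptor constant genes gave a mixed set. Trdc (ENSMUSG00000104876, chromosome 14, 54380308 to 54386325, plus strand), of the delta chain, was 184 and 208 CPM in the members, 249 and 299 CPM in the CD8-negative and 40.6 and 33.7 CPM in the Dntt-negative reference. Trgc1, of the gamma chain, was 186 and 215 CPM against 302 and 369 CPM and 33.1 and 23.0 CPM. Trac (ENSMUSG00000076928, chromosome 14, 54457978 to 54461663, plus strand), of the alpha chain, ran the other way, at 136 and 164 CPM against 47.9 and 33.1 CPM and 398 and 524 CPM. As a sum over cells the members thus held delta, gamma and alpha RNA, each between the levels of both references. Trbc1 and Trbc2, of the beta chain, were 1553 and 1578 CPM and 2118 and 1800 CPM in the members, within a log2 ratio of 0.69 of each reference.

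Egress and homing genes lay between the references too. Ccr7 (ENSMUSG00000037944, chromosome 11, 99035022 to 99045911, minus strand), the chemokine receptor for the medulla, stood at 140 CPM (110 to 176) and 272 CPM (245 to 302) in the members. It was 53.2 and 32.2 CPM in the CD8-negative and 562 and 842 CPM in the Dntt-negative reference, so its log2 ratio was 1.39 (0.76 to 2.06) and 3.08 (2.72 to 3.45) against the former and -2.01 (-2.39 to -1.64) and -1.63 (-1.79 to -1.47) against the latter. Klf2, a transcription factor that drives S1pr1, was 121 and 163 CPM, S1pr1, the receptor that senses the exit signal, 42.2 and 79.3 CPM, and Ms4a4b, a membrane protein of mature T cells, 80.5 and 98.2 CPM. Each of these was above the CD8-negative reference and below the Dntt-negative one in both libraries, with an interval against the former that reached 0 for S1pr1 in the library labelled Pdcd1fl/fl.

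**Figure D1:**
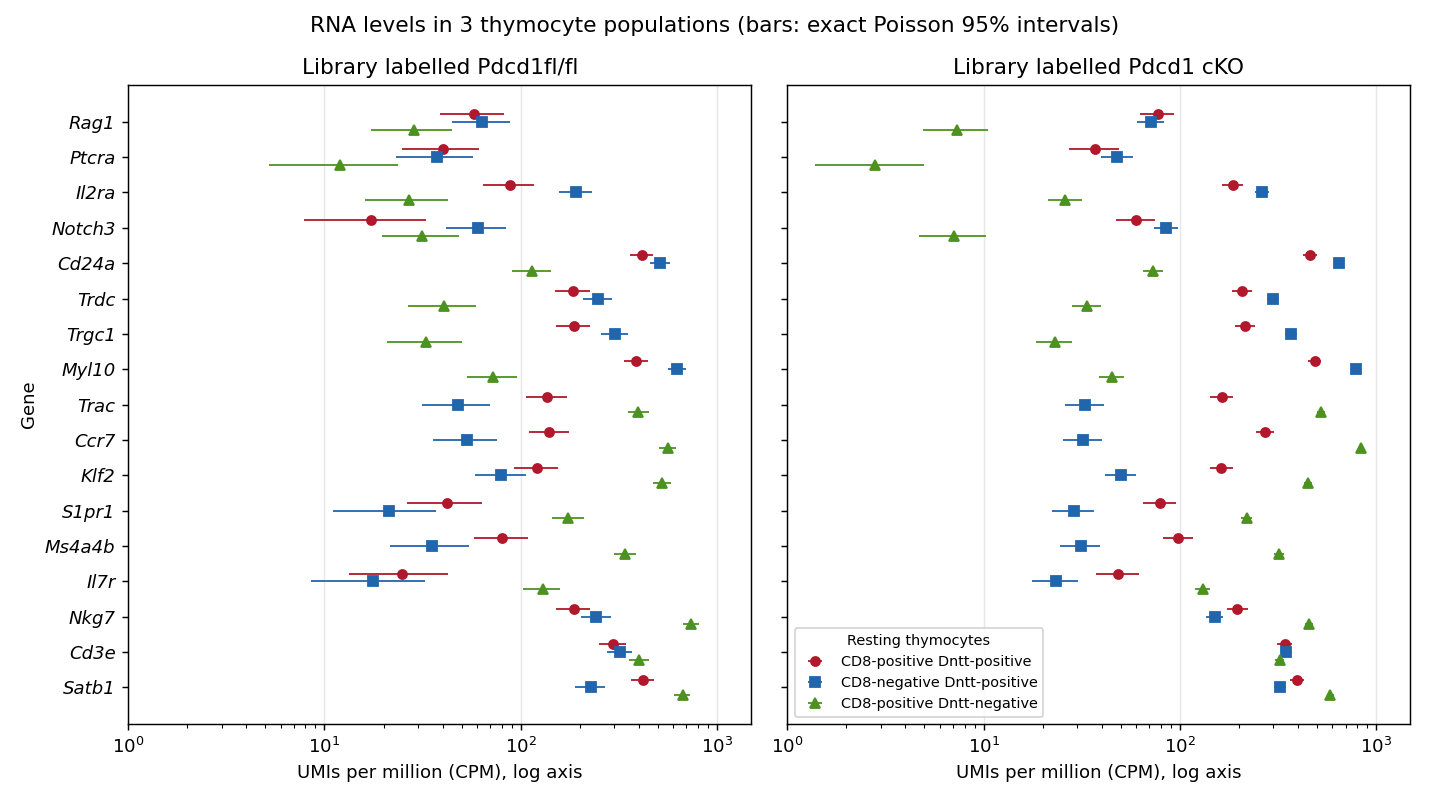
Levels of 17 genes in resting thymocytes, in CPM on a log axis, for each thymic library. Points are sums over the cells of a population and bars are exact Poisson 95% intervals; for most genes the CD8-positive Dntt-positive cells lie between both references, near the CD8-negative one for Rag1 and Ptcra.

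Across all genes the members were compared with the CD8-negative reference. With at least 50 UMIs over both populations, 28 of 3174 genes (0.882%) were at least 2-fold higher and 25 (0.788%) at least 2-fold lower in the library labelled Pdcd1fl/fl. In the other library 101 of 6997 (1.44%) were higher and 78 (1.11%) lower. These 101 and 78 depend on the limits. They became 281 and 266 with at least 1 Dntt UMI, which also changed the CD8-negative reference from 330 to 443 cells. With at least 2 CD8 UMIs, which left that reference at 330 cells, they became 160 and 285. The median log2 ratio of all genes was 0.00 and -0.01.

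Differences from the Dntt-negative reference were more common. Of the library labelled Pdcd1fl/fl 311 of 3619 genes (8.59%) were higher in the members and 415 (11.5%) lower. In the one labelled Pdcd1 cKO 605 of 7746 (7.81%) were higher and 325 (4.2%) lower, around a median log2 ratio of 0.20. The split of the latter depended on the scaling: 65.1% of its calls were higher with CPM, 56.6% (494 against 379) without mitochondrial, ribosomal protein and Malat1 UMIs in the total, and 44.8% (373 against 460) with median-of-ratios scaling. In the library labelled Pdcd1fl/fl the share was 42.8%, and 35.0% with median-of-ratios scaling.

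A mixture of both references alone has a level between them, so genes that leave the range of both were counted. Doublets and free RNA can also hold RNA of other cells, of which cycling ones were 474 of 1067 and 560 of 2635 filtered barcodes. Such RNA can lie outside the range of both references, so these counts cannot tell a mixture from a stage with both RNAs. At least 2-fold above both were 18 of 4796 genes (0.375%) and 40 of 8926 (0.448%), and at least 2-fold below both were 40 (0.834%) and 35 (0.392%). With the small counts behind most of these genes, counting error alone moves some past 2-fold, and their number was not tested. The members lay between the references for 2215 of 4796 (46.2%) and 4559 of 8926 genes (51.1%). This share, a measure chosen after values had been seen, rose to 75.4 and 83.2% of genes with references at least 2-fold apart and to 85.5% (159 of 186) and 92.4% (424 of 459) at 4-fold.

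Positions were put on a scale with the CD8-negative reference at 0% and the Dntt-negative reference at 100%. At 4-fold, genes higher in the latter had a median position of 12.0% (122 genes) and 27.9% (221 genes), and genes higher in the former 34.5% (64 genes) and 34.4% (238 genes). At 2-fold these were 13.4 and 28.5%, and 20.7 and 32.0%, and over all genes 12.9 and 36.1%, and 16.1 and 24.5%. All of these medians are nearer to the CD8-negative reference, and which direction is nearer depends on the fold in the library labelled Pdcd1 cKO.

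Of the 10 genes ranked highest above both references in the library labelled Pdcd1 cKO, several rested on few cells. The ranking used log2 ratios with 0.5 counts added. Wdr88 led (2.32), with 39.1% of its 64 UMIs from 1 barcode, followed by the chemokine gene Xcl1 (1.67), with 88.2% of its 127 UMIs from 1 barcode. Without that cell the ratio of Xcl1 to the Dntt-negative reference turned from 1.67 to -1.36. Frs2 (1.40, an adaptor of growth factor receptors) and Gemin5 (1.25, a splicing assembly protein) had 28.8% and 51.4% of their UMIs from 1 barcode, and Acer3, Osbpl2, Spata24 and Ptprd ranged from 1.01 down to 0.96.

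The others past 2-fold were spread over more cells: Bop1, a ribosome assembly factor (1.41), Tk1, thymidine kinase (1.19), and Acer3 had 6.67, 8.89 and 12.1% of their UMIs from 1 barcode. Bop1 had 45 UMIs in 39 members, at 34.0 CPM against 12.7 and 10.1 CPM. Tk1 had 45 UMIs in 30 members, at 34.0 CPM against 14.8 and 8.86 CPM. The lowest of their ratios to the references in the other library was -0.53 for Bop1 and 0.24 for Tk1, so neither was 2-fold above both there.

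The 10 genes ranked highest against the CD8-negative reference in the library labelled Pdcd1 cKO began with Xcl1 (3.10). After it came Ccr7 (3.07), Slfn2 (2.45, a regulator of T cell quiescence), Gm8369 (2.42), Trac (2.30), Gm2682 (2.30), Gramd3 (2.06), Ifi27l2a (2.03, induced by interferon), Cd52 (1.99, a lymphocyte surface glycoprotein) and Ctss (1.86, the protease cathepsin S). Without its highest cell the ratio of Xcl1 fell from 3.10 to 0.07. The other library had all 10 ratios above 0, from 0.11 for Ctss to 2.92 for Xcl1, which rests there on 3 UMIs against 0.

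At the low end of that comparison stood Gm30835 (-5.18), Vtcn1 (-2.09, an inhibitory ligand), Macrod2 (-1.75), Mt2 (-1.69, a metallothionein), Dqx1 (-1.52), C920021L13Rik (-1.46), Gm5111 (-1.40), Diaph3 (-1.33, an actin-nucleating formin), Gm15518 (-1.27) and Vegfa (-1.20, a vascular growth factor). Of these, Macrod2, Mt2, Dqx1, C920021L13Rik and Diaph3 had ratios of 0.76, 2.43, 0.01, 0.11 and 0.04 in the library labelled Pdcd1fl/fl. Mt2 rests there on 2 UMIs against 0 and Macrod2 on 5 against 3, and the others are near 0, so no direction is read from them.

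Against the Dntt-negative reference the highest 10 in the library labelled Pdcd1 cKO were Khdc1a (3.66), Myl10 (3.44), Rag1 (3.38), C77080 (3.30), Gm4632 (3.30), Trgc1 (3.22), Akr1c13 (3.08), Notch3 (3.06), Pld4 (3.03) and Aldh2 (2.97). For C77080, 60.3% of the UMIs came from 1 cell, and the ratio without it was 1.99. Myl10 (ENSMUSG00000005474, chromosome 5, 136718153 to 136730711, plus strand), a myosin light chain, was 389 and 488 CPM in the members, 630 and 792 CPM in the CD8-negative and 72.1 and 45.0 CPM in the Dntt-negative reference. The other library had 9 of the 10 ratios above 0, from 1.00 to 2.85, and Notch3 was -0.83.

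The lowest in that comparison were Dcn (-6.35, the matrix protein decorin), Ppp1r3c (-6.25), Gm11335 (-3.05), Spag16 (-2.54), Csmd3 (-2.49), Igflr1 (-2.41), Cd7 (-2.41, a T cell surface protein), Il18r1 (-2.33, the interleukin 18 receptor), Gm20559 (-2.23) and Ifi209 (-2.17). Shares of UMIs from 1 cell were taken in the members only. Whether the lowest genes of this or the CD8-negative comparison rest on few reference cells was not tested. Dcn had 1 and 0 UMIs in the members against 193 and 121. Ppp1r3c had 0 UMIs in the members against 113 in the library labelled Pdcd1 cKO, and 0 in all of these populations of the other library. Ppp1r3c and Spag16 had ratios above 0 (0.35 and 1.94) in the library labelled Pdcd1fl/fl, the former only from the 0.5 counts added and the latter from 4 against 1 UMIs.

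Gene lists follow by function. Below, each list has the genes that reached 50 UMIs in the comparison, how many of them passed 2-fold, and their median log2 ratio, to be read against 0.882 and 1.44% of all genes higher than the CD8-negative reference, 0.788 and 1.11% lower, 8.59 and 7.81% higher than the Dntt-negative reference, 11.5 and 4.2% lower, and the medians of all genes given above. No list was tested.

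Of the mature single-positive genes, 3 of 12 and 9 of 16 were higher than in the CD8-negative reference and 0 lower (medians 0.43 and 1.09). Relative to the Dntt-negative reference 16 of 17 and 12 of 17 were lower and 0 higher (medians -1.52 and -1.28). In the former library Il7r, the interleukin 7 receptor, was lowest (-2.33). In the latter Ly6c2, a surface protein of memory-type cells, was lowest (-2.14). The members thus had more mature-stage RNA than one reference and less than the other.

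Among T cell receptor constant genes, of which 7 of the 10 listed symbols are in the files, Trac was the 1 of 7 past 2-fold above the CD8-negative reference in each library, with medians of -0.43 and -0.52. Compared with the Dntt-negative reference 4 of 7 were higher and 1 lower in each (medians 1.65 and 2.44), from 2.92 for Trgc4 and 3.22 for Trgc1 down to -1.54 and -1.67 for Trac. The pre-TCR and Notch list held 0 genes higher and 1 of 8 (Il2ra) and 0 of 15 lower than the CD8-negative reference (medians -0.08 and -0.09). Against the Dntt-negative reference 2 of 10 and 7 of 15 were higher and 1 lower in each (medians 0.19 and 0.58), with Il2ra and Ptcra highest and the inhibitors Id2 and Id3 lowest.

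Recombination genes outside the rule could be measured for 2 and 7 genes against the CD8-negative reference, with 0 past 2-fold (medians -0.29 and -0.38). Relative to the Dntt-negative reference they were 1 and 7, of which 1 (Xrcc6, of the end-joining machinery) and 3 were higher and 0 lower (medians 1.45 and 0.45). The genes of the stage with both coreceptors had 2 of 8 and 4 of 13 higher and 0 lower there (medians -0.09 and 0.53), led by Arpp21 (1.88) and Rag1. The sets measured differ between libraries, so these medians are not compared.

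Replication genes outside the rule were compared too, with all 3 populations limited in cycling genes. Relative to the Dntt-negative reference 9 of 15 and 11 of 17 measured genes were higher and 0 lower (medians 1.02 and 1.14). Stmn1 (1.60), a microtubule regulator, and Tk1 (1.94) led, and Cdt1 was lowest (-0.16 and -0.02). Against the CD8-negative reference 0 and 1 of 17 were higher and 0 lower (medians -0.08 and 0.09). The medians against the Dntt-negative reference for replication genes outside the rule were 0.99 and 1.05 without mitochondrial, ribosomal protein and Malat1 UMIs in the total, and 0.94 and 0.95 with median-of-ratios scaling.

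Among CD3 and proximal signaling genes, 0 of 12 and 2 of 15 were higher and 0 lower than in the CD8-negative reference (medians -0.07 and 0.10), with Cd2, an adhesion receptor, highest (0.95 and 1.84). Compared with the Dntt-negative reference 0 were higher and 6 of 15 and 3 of 16 lower (medians -0.76 and -0.18), with the co-receptor Cd6 lowest (-2.28 and -1.84). Cd3e, a chain of the CD3 complex, was 295 and 342 CPM in the members against 320 and 350 CPM and 401 and 323 CPM. It differed little between the populations of the library labelled Pdcd1 cKO. In the other library it was lower in the members than in the Dntt-negative reference.

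Positive selection genes, induced by receptor signaling, had 0 of 6 and 0 of 10 genes past 2-fold against the CD8-negative reference (medians -0.01 and -0.06). Against the Dntt-negative reference 0 and 1 were higher and 4 of 9 and 3 of 11 lower (medians -0.50 and -0.68), with the early response factor Egr1 lowest at -5.21 and -1.66. Egr1 had 4 and 24 UMIs in the members against 212 and 230. Immediate early and heat shock genes had 0 of 5 and 0 of 9 past 2-fold against the CD8-negative reference (medians 0.01 and 0.22). Relative to the Dntt-negative reference they had 6 of 9 lower in the library labelled Pdcd1fl/fl (median -1.56), with Fos at -3.58, and 0 of 11 in the other (-0.17). Connective tissue markers moved with this: in that reference 4 and 5 of 5 had a UMI, summing to 394 and 35.9 CPM, with Dcn most abundant (193 and 121 UMIs) and Pdgfra at 0 in the former library. Their part in the values of Egr1, Fos and these lists was not tested.

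Cytotoxic and memory-like genes had 0 of 2 and 2 of 5 higher and 0 lower than the CD8-negative reference (medians -0.10 and 0.96), 1 of the 2 being Xcl1 through 1 cell. Compared with the Dntt-negative reference 1 of 5 and 2 of 9 were higher and 4 in each lower (medians -1.86 and -0.98). Those higher were Gzma and, in the library labelled Pdcd1 cKO, Xcl1 (1.67), which was -1.36 without its highest cell. Gzma, which encodes granzyme A, was at 539 and 181 CPM in the members, 472 and 219 CPM in the CD8-negative and 102 and 45.0 CPM in the Dntt-negative reference. Survival and death genes had 0 of 5 and 0 of 7 past 2-fold against the CD8-negative reference (medians 0.03 and -0.05), and 1 of 5 and 0 of 13 higher and 1 and 3 lower against the other (medians -0.42 and -0.25).

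Markers of other lineages ranged from 0 to 227 CPM in sum. Of 7 B cell markers 2 and 4 had a UMI, 159 and 89.9 CPM in sum, most of it Ighm (146 and 74.8 CPM), while Ms4a1 and Pax5 were at 0 in both libraries and Cd79a and Igkc at 0 in the library labelled Pdcd1fl/fl. Of 9 macrophage or dendritic cell markers 3 and 6 had a UMI (21.1 and 53.6 CPM), led by H2-Ab1 (15.3 CPM) and Cd74 (21.9 CPM), with C1qa, C1qb and Csf1r at 0 in both libraries and Lyz2, Itgax and Flt3 at 0 in the former. These macrophage or dendritic cell markers summed to 30.2 and 32.7 CPM in the CD8-negative and 37.6 and 68.3 CPM in the Dntt-negative reference. The log2 ratio of Cd74 to the latter was -1.34 in the library labelled Pdcd1 cKO. Ighm was also in the CD8-negative (97.6 and 63.2 CPM) and Dntt-negative (88.7 and 88.8 CPM) references. Its ratio to both had an interval above 0 in the library labelled Pdcd1fl/fl only.

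Granulocyte markers (5 genes) had 0 UMIs and 1 UMI, of Mpo, with S100a8, S100a9, Elane and Ly6g at 0 in both. Erythroid markers (5) had 2 and 9 UMIs, 3.83 and 6.80 CPM, led by Hbb-bs (1 and 4 UMIs), with Hba-a1 and Hba-a2 at 0 in the library labelled Pdcd1fl/fl. Connective tissue markers (5) had 1 UMI in each library, of Dcn and of Col1a2, and the other 4 at 0. In the Dntt-negative reference they summed to 394 and 35.9 CPM, mostly Dcn (290 and 30.6 CPM), which is what put Dcn at the foot of that ranking.

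Thymic epithelium markers (6) had a UMI for 3 genes in each library, 21.1 and 51.4 CPM in sum, led by Epcam (13.4 and 34.8 CPM), with Krt5, Psmb11 and Foxn1 at 0. They summed to 47.9 and 61.9 CPM in the CD8-negative and to 21.0 and 12.1 CPM in the Dntt-negative reference. The log2 ratio of Epcam to the latter was 3.87 in the library labelled Pdcd1 cKO. Gamma-delta and innate-like markers (8) had a UMI for 4 and 7, 190 and 227 CPM, almost all Trdc, with Il17re at 0 in both and Zbtb16, Ncr1 and Tyrobp at 0 in the library labelled Pdcd1fl/fl. CD4 T cell markers (4) had 1 UMI, of Foxp3, and 4 UMIs, all of Cd4, with Zbtb7b and Cd40lg at 0 in both.

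Background RNA of Dntt was measured in CD8 cells that should lack it. Among resting CD8-positive cells 91 of 329 (27.7%) and 189 of 1218 (15.5%) had at least 2 Dntt UMIs, at a median of 3636 and 5233.5 UMIs. Among Ccl5-high CD8-positive cells, with at least 15 Ccl5 UMIs, these were 2 of 32 (6.25%, 0.766 to 20.8%) and 18 of 249 (7.23%, 4.34 to 11.2%), at 3287.5 and 4653 UMIs. Among resting CD8-positive cells with Ccr7 and S1pr1, a mature set, they were 9 of 89 (10.1%) and 37 of 514 (7.20%), at 3994 and 5854 UMIs, and those 9 and 37 are members by the rule. At least 1 Dntt UMI was found in 159 (48.3%, 42.8 to 53.9%) and 470 (38.6%, 35.8 to 41.4%) of the resting cells and in 4 (12.5%, 3.51 to 29.0%) and 80 (32.1%, 26.4 to 38.3%) of the Ccl5-high cells, with overlapping intervals in the library labelled Pdcd1 cKO.

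Thinning each barcode to 1000 UMIs, which left out 0 cells, gave 6.69% and 3.28% of resting CD8-positive cells. It gave 0 of 32 and 0.402% of Ccl5-high cells and 2.25% and 0.973% of the mature set. Before thinning the resting cells counted are the members by the rule, so the resting shares are description only. How many members have at least 2 Dntt UMIs from background alone was not tested.

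Background RNA of CD8 was measured in cells with at least 2 Il2ra UMIs, which should precede CD8. Among resting cells with at least 2 Dntt UMIs 91 of 219 (41.6%, 34.9 to 48.4%) and 189 of 519 (36.4%, 32.3 to 40.7%) had a CD8 UMI, at 4183 and 6180 UMIs. Among resting Il2ra cells these were 18 of 57 (31.6%, 19.9 to 45.2%) and 88 of 270 (32.6%, 27.0 to 38.5%), at 4330 and 6172 UMIs. Thinned to 1000 UMIs, with 0 cells left out, the shares were 11.4 and 11.4% against 8.77 and 9.63%.

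With at least 2 CD8 UMIs the shares were 15.5 and 18.5% against 12.3 and 13.3%. Of the 18 and 88 Il2ra cells with a CD8 UMI 11 and 53 are members, and the rule used the same CD8 and Dntt counts. These shares are therefore a description, and the part of background RNA in the members' CD8 counts was not tested.

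Levels were also set against the same populations. In Ccl5-high CD8-positive cells of the library labelled Pdcd1 cKO, 7 immature genes outside the rule (Rag1, Ptcra, Il2ra, Cd24a, Notch3, Trdc, Trgc1) stood at 5.09% (Notch3) to 12.1% (Ptcra) of their level in the CD8-negative reference, and Dntt at 10.1%. In the members they stood at 58.4% (Trgc1) to 108% (Rag1). In the library labelled Pdcd1fl/fl, with 32 Ccl5-high cells, Rag1, Ptcra and Trdc had 0 UMIs there and the highest was Notch3 at 27.0% from 2 UMIs, against 28.6% (Notch3) to 108% (Ptcra) in the members. There the intervals of members and Ccl5-high cells overlapped for Ptcra, Il2ra and Notch3.

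The Il2ra cells include those 11 and 53 members, which draws the values of both groups together. In Il2ra cells of the library labelled Pdcd1 cKO, Trac, Ccr7, Ms4a4b, S1pr1 and Klf2 stood at 12.7, 13.8, 15.4, 22.0 and 23.7% of their level in the Dntt-negative reference, and in the members at 31.3, 32.3, 30.7, 36.1 and 36.1%. Cd8b1 stood at 12.4% in the Il2ra cells, and Nkg7, a granule protein, and Il7r differed less from the members (39.6 against 43.2% and 28.0 against 36.9%). In the other library Trac and Ms4a4b were lower in the Il2ra cells (19.9 and 10.7%) than in the members (34.2 and 23.6%), and Ccr7 was close (21.8 against 24.9%). Klf2, S1pr1 and Nkg7 were higher in the Il2ra cells (28.9, 28.4 and 40.2%) than in the members (23.0, 24.2 and 25.2%).

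**Figure D2:**
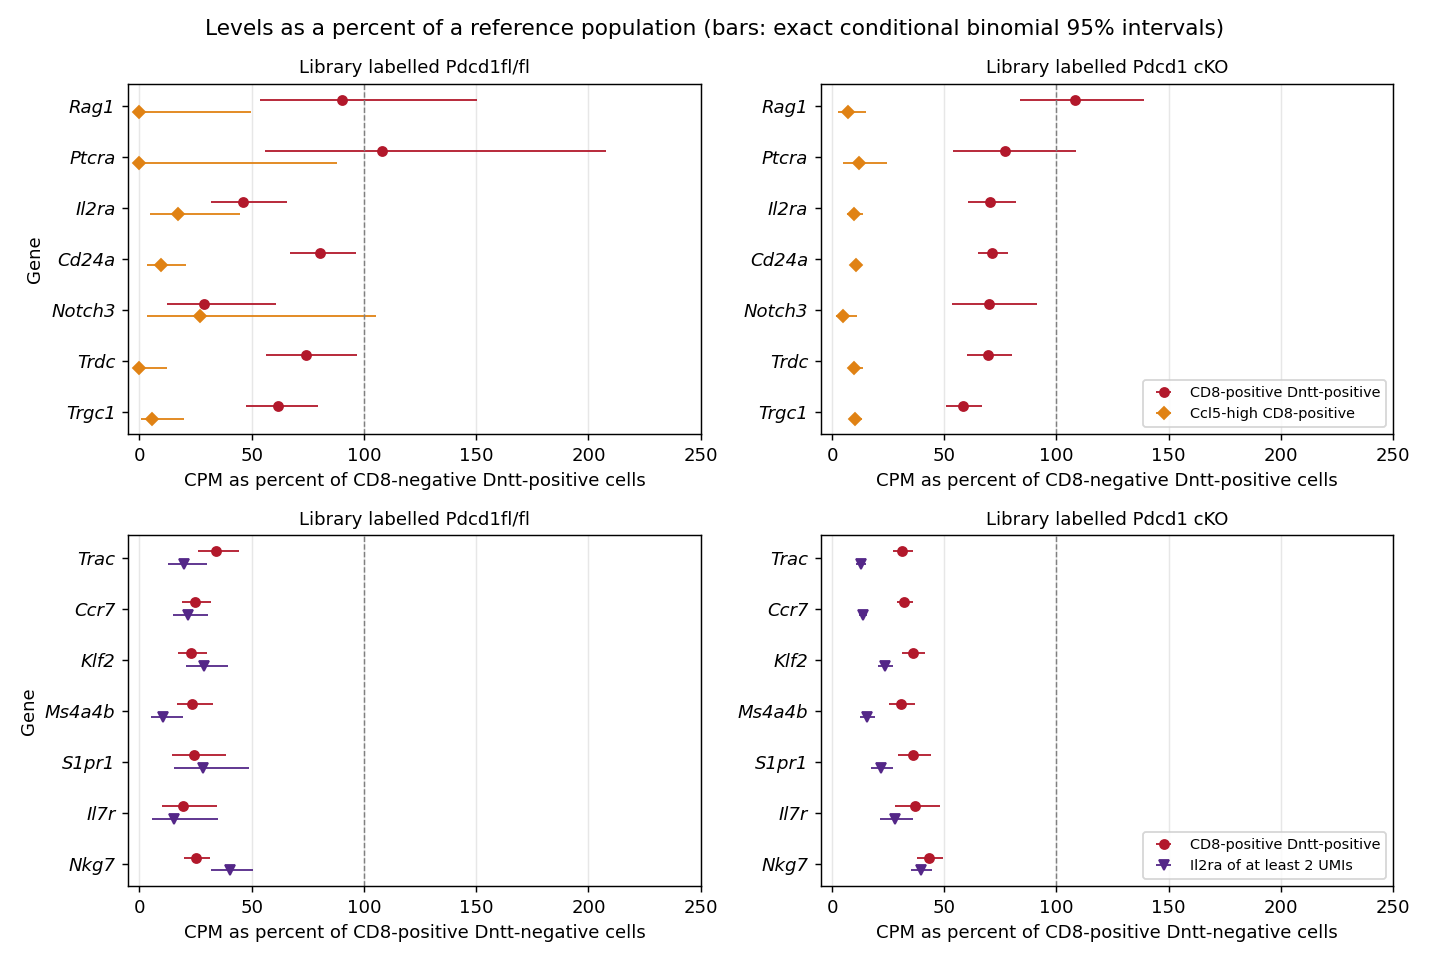
CPM of 7 immature genes (upper panels) and 7 mature genes (lower panels) as a percent of the reference named on the axis, in CD8-positive Dntt-positive cells and in a population that should lack those genes. Bars are exact conditional binomial 95% intervals; in the library labelled Pdcd1 cKO the immature genes of Ccl5-high cells lie between 5.09% and 12.1%.

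No barcode was removed as a doublet. Scrublet with 30 components called 17 of 1067 (1.59%) and 10 of 2635 (0.380%) filtered barcodes, and 1 of 91 and 4 of 189 (2.12%, 0.580 to 5.33%) members. It called 2 and 0 CD8-negative and 2 and 1 Dntt-negative reference cells. With 20 components, the number first tried, it called 10 and 19 filtered barcodes and again 1 and 4 members. Such calls find droplets of unlike cells and are blind to free RNA.

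Depth is raised by doublets and by the rule itself. The median of the members was above both references in each library, though in the library labelled Pdcd1 cKO only as 6230 against 6113 UMIs of the CD8-negative reference, whose upper quartile was higher (9076 against 8650). Of the members 3 (3.30%) and 11 (5.82%) were among the deepest 10% of filtered barcodes. For the CD8-negative reference these were 1 (0.781%) and 25 (7.58%), and for the Dntt-negative reference 2 (1.18%) and 0. The part of depth, doublets and free RNA in the members' profile was not tested beyond these values and cannot be told apart from a stage with both RNAs.

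Members varied among themselves. A per-cell mature share was computed as the UMIs of 10 mature genes as a percent of those of 17 genes, the others being 7 immature ones, with limits of 25 and 75% chosen after values had been seen. The mature genes were Trac, Ccr7, S1pr1, Klf2, Il7r, Ms4a4b, Ms4a6b, Gimap3, Gimap4 and Gimap6, and the immature ones Rag1, Rag2, Ptcra, Il2ra, Notch3, Cd24a and Trdc. Of those labelled Pdcd1fl/fl 21 members were below the limits, 53 between and 17 above. In the one labelled Pdcd1 cKO they were 67, 58 and 63, and 1 member had no UMI of these genes. The classes are a range: 16 and 34 members lay within 5 points of a limit, and the measure rests on a median of 8 and 14 UMIs per cell.

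The references were spread differently over the classes. Of the CD8-negative cells 62, 47 and 17, and 175, 135 and 17, fell into these classes, and of the Dntt-negative cells 5, 13 and 152, and 5, 26 and 716. The share above 75% was thus 18.7% (11.3 to 28.2%) and 33.5% (26.8 to 40.7%) in the members, 13.5 and 5.20% in the CD8-negative and 89.4 and 95.9% in the Dntt-negative reference. The members of the library labelled Pdcd1 cKO were spread over both ends, with a middle quartile range of 16.5 to 92.4%, against 25 to 66.7% in the other.

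**Figure D3:**
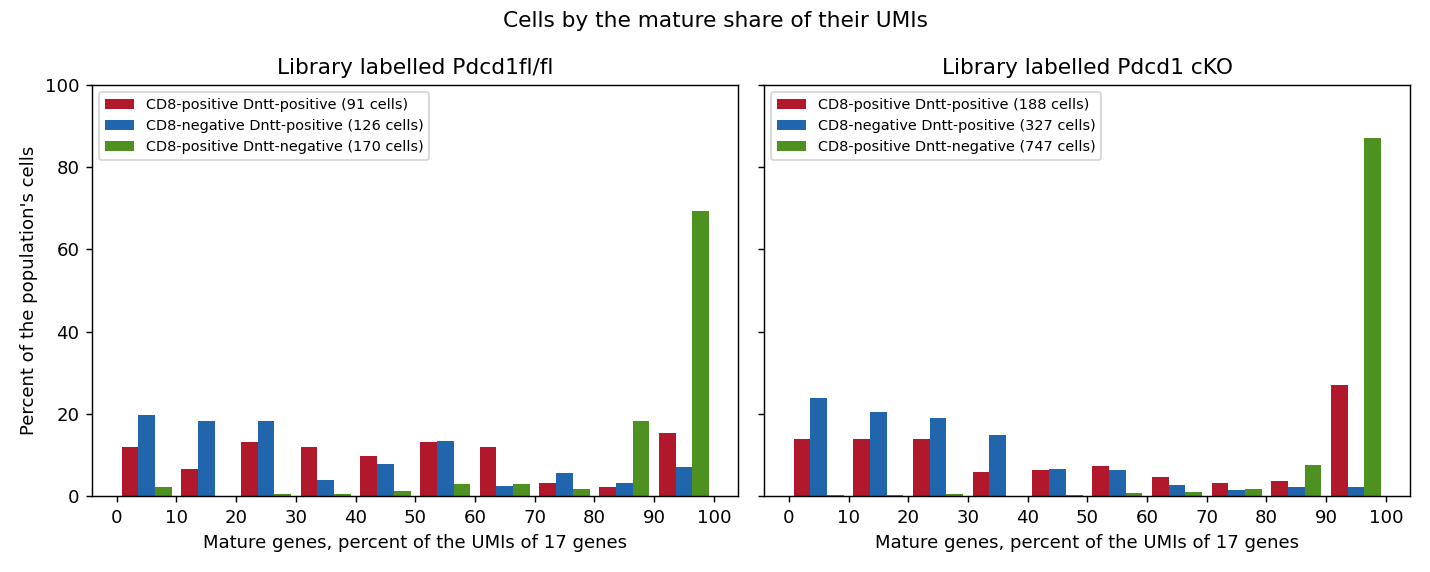
Percent of each population's cells by mature share, the UMIs of 10 mature genes as a percent of the UMIs of 17 genes, in steps of 10 points, for each thymic library. The CD8-positive Dntt-positive cells reach both ends, and the references gather at opposite ends.

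Rule genes, as a description, and genes outside the measure went with these classes. The 67 low members of the library labelled Pdcd1 cKO had a median of 7331 UMIs, 5 of Dntt and 1 of CD8, and the 63 high members 5771 UMIs, 2 of Dntt and 5 of CD8. Myl10 was 732 CPM (661 to 808) in the low and 41.5 CPM (23.7 to 67.4) in the high members, and Ly6d, a surface protein of early lymphocytes, 1711 and 174 CPM. Lef1, a transcription factor of T cells, was 109 and 428 CPM, Satb1 283 and 594 CPM, and Cd69, an activation marker, 69.4 and 239 CPM.

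The members of that library thus ranged from low cells to high cells. Low cells had few CD8 UMIs and high Myl10 and Ly6d, and high cells few Dntt UMIs and high Lef1 and Satb1. Cd69 was higher as a sum over the high cells, with a median of 0 UMIs per cell in both classes. Between them, the 58 middle members had a median of 5614.5 UMIs, 4 of Dntt and 1 of CD8, with Myl10 at 597 CPM. Of the other library the 21 low, 53 middle and 17 high members had medians of 3, 4 and 2 Dntt UMIs and of 1 CD8 UMI in every class, with Cd8b1 at 139, 207 and 431 CPM, and Myl10 at 449, 453 and 59.9 CPM. Its Ly6d was 1037 CPM in the low and 863 CPM in the high members, with overlapping intervals. The median of Ly6d per cell was 6 UMIs in the low and 2 in the high members, at a median depth of 6090 and 4303 UMIs.

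The order by Dntt count, a rule gene, is description only. Among members labelled Pdcd1 cKO the 75 with 2 Dntt UMIs had Ccr7 at 592.5 CPM, Trac at 347 CPM and Rag1 at 30.1 CPM. The 24 members with 10 or more had Ccr7 at 55.7 CPM, Trac at 11.1 CPM and Rag1 at 115 CPM, at a median depth of 10630.5 against 5288 UMIs. Over the 4 bins of 2, 3 to 4, 5 to 9 and 10 or more UMIs, of 31, 36, 19 and 5 members, those labelled Pdcd1fl/fl had Ccr7 at 172, 70.0, 223 and 65.4 CPM and Rag1 at 52.9, 43.1, 50.4 and 153 CPM. Their Trac was 212, 108, 137 and 0 CPM and their Il2ra 46.3, 59.2, 101 and 305 CPM. Il2ra thus rose and Trac was highest at 2 Dntt UMIs there, while Ccr7 had no order.

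Splits on genes outside the rule showed how far early and late RNA shared cells. The 83 members with an Il2ra UMI in the library labelled Pdcd1 cKO had Ccr7 at 117 CPM (91.7 to 147) and the 106 without it at 410 CPM (364 to 461), at a median of 7290 and 5916.5 UMIs. The 26 and 65 such members of the library labelled Pdcd1fl/fl had 186 CPM (128 to 262) and 116 CPM (83.0 to 158). On this split Ccr7 was lower with Il2ra in the former library only.

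A split on Trdc gave the same direction in both libraries. The 40 members labelled Pdcd1fl/fl with a Trdc UMI had Trac at 72.5 CPM (43.6 to 113) and the 51 without it at 200.4 CPM (150 to 263), and Ccr7 at 95.4 and 185 CPM. The 91 and 98 such members labelled Pdcd1 cKO had Trac at 83.4 CPM (63.9 to 107) and 267 CPM (227 to 313), and Ccr7 at 179 and 391.5 CPM. Delta and alpha RNA were thus in partly separate members of each library.

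A split on Rag1 gave opposite directions, with overlapping intervals of Trac in the library labelled Pdcd1fl/fl. The 21 members labelled Pdcd1fl/fl with a Rag1 UMI had Trac at 183 CPM (121 to 264) and the 70 without it at 117 CPM (84.5 to 157), and Ccr7 at 163 and 130.3 CPM. The 52 and 137 such members labelled Pdcd1 cKO had Trac at 20.7 CPM (8.93 to 40.7) and 223 CPM (194 to 255.5), and Ccr7 at 59.4 and 359.8 CPM.

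Between libraries the members were compared without a test. The median log2 ratio of the library labelled Pdcd1 cKO over the other was -0.09 over 4765 genes. That median moved to 0.05 without mitochondrial, ribosomal protein and Malat1 UMIs in the total and to 0.04 with median-of-ratios scaling, a shift the values below are to be read against. By list, the medians were -0.89 for replication, 0.68 for positive selection, 0.48 for mature single-positive, 0.41 for pre-TCR and Notch, 0.34 for recombination, 0.31 for immediate early and heat shock, 0.23 for both-coreceptor stage, 0.20 for CD3 and signaling, 0.17 for receptor constant, -0.03 for survival and death and -0.05 for cytotoxic genes. Pdcd1 itself had 3 and 2 UMIs in the members, at or below the floor of 3 counts, so no ratio of it is read.

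The genes ranked highest in the library labelled Pdcd1 cKO were Xcl1 (3.84), Gm50021 (3.33), Slc15a2 (3.03, a peptide transporter), Gm40645 (2.73) and Cdk8 (2.49, a kinase of the Mediator complex). Among the lowest were Ccdc73 (-3.02), Bmerb1 (-2.48), Spc24 (-2.00, a kinetochore protein) and Spats2 (-1.90). Without its highest cell in each library Xcl1 was 1.27, and Spats2, with 47.1% of its UMIs from 1 cell of the library labelled Pdcd1fl/fl, was -1.19.

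All of these but Xcl1 differed in the same direction in both references. Slc15a2, for example, was 44.1 and 369 CPM in the members, 32.0 and 335 CPM in the CD8-negative and 63.1 and 343 CPM in the Dntt-negative reference. Spc24 was 161 and 40.04 CPM in the members, 121 and 34.4 CPM and 45.1 and 22.0 CPM. The size could differ: Cdk8 was 57.5 and 327 CPM in the members, 56.8 and 343.5 CPM in the CD8-negative and 155 and 282 CPM in the Dntt-negative reference, and Ccdc73 192 and 23.4 CPM, 121 and 45.8 CPM, and 55.6 and 25.3 CPM. Genotype, mouse and library cannot be told apart.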

How the data were processed

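The authors deposited, for each of 6 libraries, raw UMI counts per barcode, made with the PIPseq pipeline 3.2 on GRCm39. Their own analysis used Seurat 4.3.0, per the submitters' processing notes, and none of its output was used. The values here start from these deposited counts. Gene coordinates are from GENCODE vM39. UMIs were summed over the cells of a population in a library and divided by all UMIs of those cells (CPM). Intervals are exact: Poisson for levels, conditional binomial for ratios, Clopper-Pearson for shares. Genes needed 50 UMIs over the populations compared for counts and lists, and 100 for rankings. List medians and rankings used log2 ratios with 0.5 counts added, and other ratios used none. Named genes were the rule genes, Pdcd1, Rag1, members of the gene and marker lists, and the 10 highest and 10 lowest genes of each comparison with a reference in the library labelled Pdcd1 cKO, the 10 highest above both, and the 5 highest and 5 lowest between libraries, rule genes left out of rankings. Ly6d was added after its values had been seen. The members and lists were chosen with earlier results of these data known. The mature share, the position between references and the choice of genes set against yardsticks came after values had been seen, and a first version of the mature share, which used further mature genes and other limits, was replaced. Scrublet was first run with 20 components, and 30, its default, was made the main setting after both results had been seen. Tools were python 3.11.15, numpy 2.4.6, scipy 1.17.1, pandas 2.3.3, scanpy 1.11.5 (with scrublet) and matplotlib 3.10.9. Alternatives were other Dntt, CD8 and mitochondrial limits, thinning to 3000 UMIs, removal of scrublet calls or of the deepest 10%, 2 other scalings, depth-matched references, other UMI minimums and a 1.5-fold threshold, and 1 more, leaving out for each gene the member with most of its UMIs, was added after the data had been seen. The symbols Tcrg-C1, Tcrg-C2 and Tcrg-C4 are not in the files. Splenic and tumor libraries were used only for Pdcd1, the count of rule cells and shared barcodes.

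Each thymic library is 1 mouse, so mouse, genotype, preparation and library cannot be told apart. Members are few, most lie at the limits of the rule, and a UMI of Dntt or CD8 can be background. Intervals leave out every source of error but counting. Genes with few UMIs can be set by 1 cell. Scrublet calls depend on its settings. RNA was counted, and no protein, receptor sequence or cell fate was measured.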

Additional observations from a re-analysis of the deposited data

Results flagged for a closer look

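Some log2 ratios of the members to a reference had intervals on opposite sides of 0 in the 2 thymic libraries. With 1 library per genotype, none of these differences was tested, and the values are given without an explanation. Each pair has the library labelled Pdcd1fl/fl first.

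Relative to the CD8-negative Dntt-positive cells, B2m, the light chain of MHC class I, had -0.15 and 0.15, and Nkg7 had -0.39 and 0.38. Trbc1 had 0.17 and -0.087, and Ccdc73 had 0.67 and -0.97, with 33.0% of its UMIs from 1 member in the former library.

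Relative to the CD8-positive Dntt-negative cells, Cdk8 had -1.43 and 0.21, Dtx1, a regulator of Notch, -1.02 and 0.51, and Ikzf2, the transcription factor Helios, -0.51 and 1.08. Mt2 had -2.35 and 0.95, and the former value rests on 2 UMIs in the members against 13. Xcl1 had -3.06 and 1.67, and the latter value rests on 1 member with 88.2% of the UMIs.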

How the results depend on the processing

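No paired analysis was possible because each genotype has 1 thymic library and no mouse gave both. Values below are members against a reference, with higher before lower, and "above" and "below" count genes 2-fold outside both references. The library labelled Pdcd1fl/fl is called the first and the one labelled Pdcd1 cKO the second.

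Other thresholds for calling genes changed every count, as fewer or more genes were tested or passed. At 1.5-fold the first library had 173 and 167 genes against the CD8-negative and 796 and 837 against the Dntt-negative reference, with 99 above and 182 below. The second had 390 and 385, 1765 and 743, 214 and 174. A minimum of 20 UMIs gave 183 and 199, 631 and 907, 87 and 212 in the first and 291 and 271, 1082 and 541, 125 and 130 in the second. A minimum of 100 gave 4 and 7, 170 and 203, 1 and 7, and 43 and 26, 305 and 214, 7 and 5.

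Other rule limits change who is a member and who is in the references. The CD8-negative reference became 82 and 258 cells with Dntt of at least 3, and 174 and 443 with at least 1. The Dntt-negative reference became 114 and 644 cells with at least 2 CD8 UMIs. Thinning to 3000 UMIs left 916 and 2514 filtered barcodes and changed both references. How much of each moved count comes from the members alone was not tested. With Dntt of at least 3 the members were 5.62 and 4.33% of filtered barcodes, and in the second library 59 genes were higher than in the CD8-negative reference, 494 lower than in the Dntt-negative one and 73 below both. The median log2 ratio between libraries was -0.12. With Dntt of at least 1 they were 14.9 and 17.8%. The first library then had 71 and 38 genes against the CD8-negative reference, 236 lower than the Dntt-negative one and 18 below. The second had 281 and 266, 322 and 43, 20 and 21, and the median between libraries was -0.17.

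With at least 2 CD8 UMIs the members were 3.19 and 3.64%. The first library had 44 genes lower than the CD8-negative reference and 159 and 196 against the Dntt-negative one. The second had 160 and 285 against the former, 154 lower than the latter and 87 below, with a median between libraries of -0.21. Thinning to 3000 UMIs before the rule gave 6.66 and 4.14%. The first library had 13 genes higher than the CD8-negative reference, 160 and 222 against the Dntt-negative one and 11 above, and the second 53 higher than the former, 96 above and 125 below. The median between libraries was -0.16.

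That median was also -0.14 with at most 10% mitochondrial UMIs, -0.063 without the deepest 10% of barcodes, 0.048 without mitochondrial, ribosomal protein and Malat1 UMIs and 0.043 with median-of-ratios scaling, which left 373 genes higher than the Dntt-negative reference in the second library. All of these are small shifts of a median, and the cause was not tested.

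Some log2 ratios changed sign. Thinning turned Mt2 (-1.68) against the CD8-negative and Pdcd1 (-0.28), Vtcn1 (-0.81) and Spag16 (-0.28) against the Dntt-negative reference in the first library, Gm11335 (-1.5) against the CD8-negative one in the second, and Pdcd1 (1.55), Gm11335 (-0.77) and Spag16 (1.55) between libraries. The CD8 limit of 2 turned Mt2 (2.69), C77080 (-0.67), Dcn (1.10) and Wdr88 (-0.77) against the Dntt-negative reference in the first library, Gemin5 (-0.011) against the CD8-negative one in the second, and Il2ra (-0.054), Notch3 (-0.36) and Khdc1a (-0.31) between libraries. The Dntt limit of 1 turned Macrod2 (0.19) against the CD8-negative reference in the second library and Pdcd1 (0.32) between libraries, and the limit of 3 turned Cd7 (-0.065) against the CD8-negative one in the second. Depth-matched references turned Aldh2 (-0.094) against the Dntt-negative reference in the first. For these, the cause was not tested. Pdcd1 had at most 3 UMIs in the members of either library, the floor below which no ratio is read, so its signs carry no direction.

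Leaving out for each gene the member with most of its UMIs, an alternative chosen after seeing the data, turned Xcl1 (-1.36) against the Dntt-negative reference in the second library, since that member held 88.2% of its UMIs. Of 375 results 352 did not change by more than their interval under it. Of other results, 350 of 416 with Dntt of at least 3, 287 with at least 1, 278 with 2 CD8 UMIs, 413 with 10% mitochondrial UMIs and 397 without the deepest barcodes stayed within their interval, as did 295 of 413 after thinning, 414 and 404 of 416 with the other scalings and 303 of 341 with depth-matched references. Removing scrublet calls changed 0 of 416. Whether depth limits genes with few UMIs more than others was not tested.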
